A study of Drosophila melanogaster with 42 samples.

Results

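Wing discs of Drosophila larvae labelled delta A were compared with wing discs labelled delta B, 2 mutants of the fat gene. The 7 libraries were chosen by rule from the 42 of the series: all 4 delta A libraries, and the 3 of 4 delta B libraries in which genes with rRNA in their symbol held more than 3% of the counts. Delta A 1 to 4 and delta B 1 to 3 were all sequenced on a NovaSeq 6000, from total RNA of imaginal discs of third-instar larvae. The labels give the genotypes as delta A and delta B, and the library protocol counts A and B among the conserved regions of the protein. The residues altered, the way each allele was made, the sex of the larvae and the number of discs per library are not given in the sources used here. Of the other labels of that sequencer, delta C, delta F and wild type (named w1118.csvd111 in its data columns) are used below for their levels. Some of the alternative fits take in further libraries.

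Fat is a giant cadherin on the surface of disc cells, where it binds Dachsous, a cadherin of neighbouring cells. The kinase Four-jointed modifies both in the Golgi, and the atypical myosin Dachs, which Fat restrains at the membrane, carries the signal inward. The pathway limits growth through the Hippo kinases, which keep the coactivator Yorkie out of the nucleus, and it orients cells in the plane of the epithelium. In the wing disc Yorkie drives genes of growth and survival such as Diap1, as well as expanded (ex), a Hippo component that feeds back on the pathway.

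Total estimated counts were 29452916, 28660245, 24963178 and 19538208 in delta A 1 to 4, and 31957164, 48392354 and 35165168 in delta B 1 to 3. The rRNA share that chose the delta B libraries was 13.9, 15.1, 17.2 and 15.0% in delta A and 12.1, 11.5 and 13.4% in delta B, while delta B 4, which was left out, held 0.792%. All 10 wing disc markers checked (vg, nub, ap, hth, Dll, en, ci, wg, tsh and zfh2) had at least 530 counts in every library. Of the neuronal markers, elav had at least 595 counts in every library and nSyb had as few as 2. The library labelled delta A 4 stood apart from the other libraries of its label, and whether that label is right cannot be told from these values. Its Spearman correlation with delta A 1 to 3, across the genes tested, was 0.937 to 0.948, against 0.981 to 0.990 among those 3. With delta B it was 0.938 to 0.943, and among delta B 1 to 3 the correlation was 0.989 to 0.995. The first principal component (62.3% of the variance) separated the labels, and the second (19.5%) separated delta A 4 from the rest. The trend with transcript length was fitted to the log2 level of each library less the mean of the 7 libraries. Its slopes are therefore relative to that mean, and their signs are not those of each library alone. Per doubling of length the slope was -0.201, -0.102 and -0.081 in delta A 1 to 3 and 0.169 in delta A 4. In delta B it was 0.073, 0.024 and 0.119. The count of all genes called is therefore given without delta A 4 as well. So are list counts, and values of single genes, that leaving it out changes by more than 1.5 times or moves across the threshold.

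**Figure D1:**
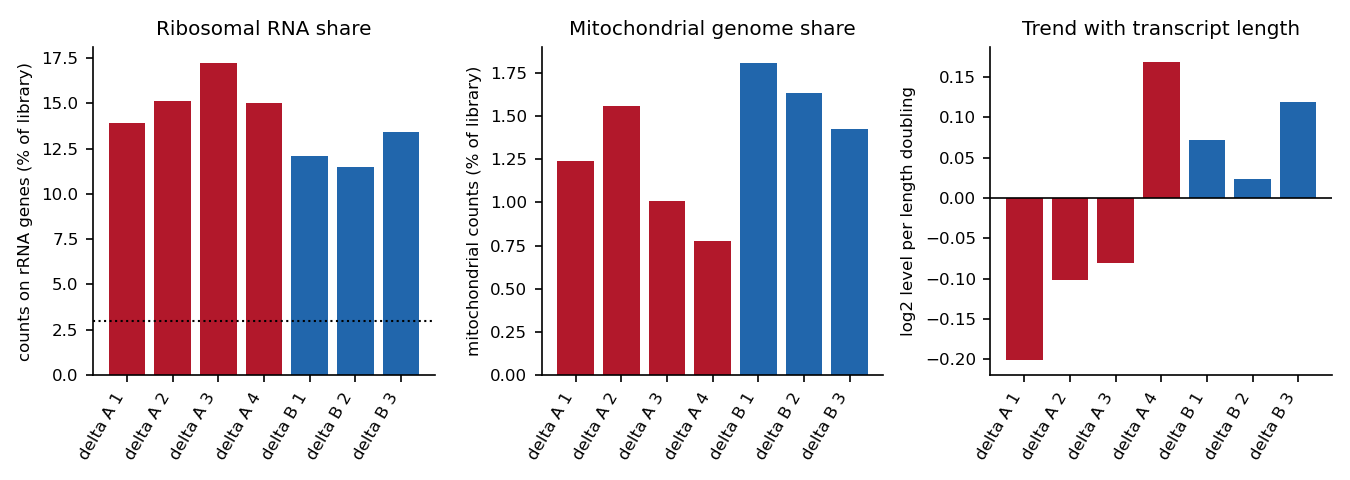
Bars give, for delta A 1 to 4 (red) and delta B 1 to 3 (blue), the share of counts on rRNA genes in percent, the share on the mitochondrial genome in percent, and the change of log2 level per doubling of transcript length. The dotted line marks the 3% rRNA share used to choose libraries. All 7 libraries lie above it, and in the third panel delta A 4, at 0.169, lies on the side of delta B.

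Of 9482 genes tested, 1771 (18.7%) differed between delta A and delta B at an adjusted p under 0.05 in edgeR's quasi-likelihood test with Benjamini-Hochberg adjustment. Of these, 895 (9.44% of the genes tested) were higher in delta A and 876 (9.24%) were lower. The levels of 1767 of the 1771 did not overlap between the labels, which was true of 37.9% of all genes tested. A change of more than 2-fold was found for 961 genes, 601 higher and 360 lower in delta A. The median log2 fold change (delta A over delta B) over all genes tested was 0.023. Without delta A 4 the count was 3937 genes (42.4% of 9292), 1806 higher (19.4%) and 2131 lower (22.9%) in delta A, with 1741 shared with the first count (44.2% of the 3937 and 99.9% of the 1742 first called and tested again). Counts of the gene lists below are to be read beside these shares of all genes, each beside the share of its own fit. Leaving out another library lowered the count of genes called, to 1069, 1109 and 1052 without delta A 1, 2 or 3 and to 977, 603 and 773 without delta B 1, 2 or 3. With delta B 4 added it was 513. Of the 90 genes named below that had passed, 87 could be tested then, of which 42 kept their call, 42 lost it and 3 changed direction without a call. With the rRNA share as a covariate it was 78, and 18 of the 90 kept their call: CG18853, CG7900, CG4210, Lcp4, CG7213, lncRNA:CR40469, Oseg5, lncRNA:CR46260, DnaJ-1, stv, Gadd45, puc, Mlc2, up, Sgs8, Lcp3, Lcp2 and Cpr67Fa1. That share does not overlap between the labels, so it and the genotype cannot be told apart. The labels do not say whether the libraries came from separate crosses or dissections, so the p-values measure the spread between these libraries only. In whole discs, fewer cells of a type and less RNA per cell cannot be told apart either.

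**Figure D2:**
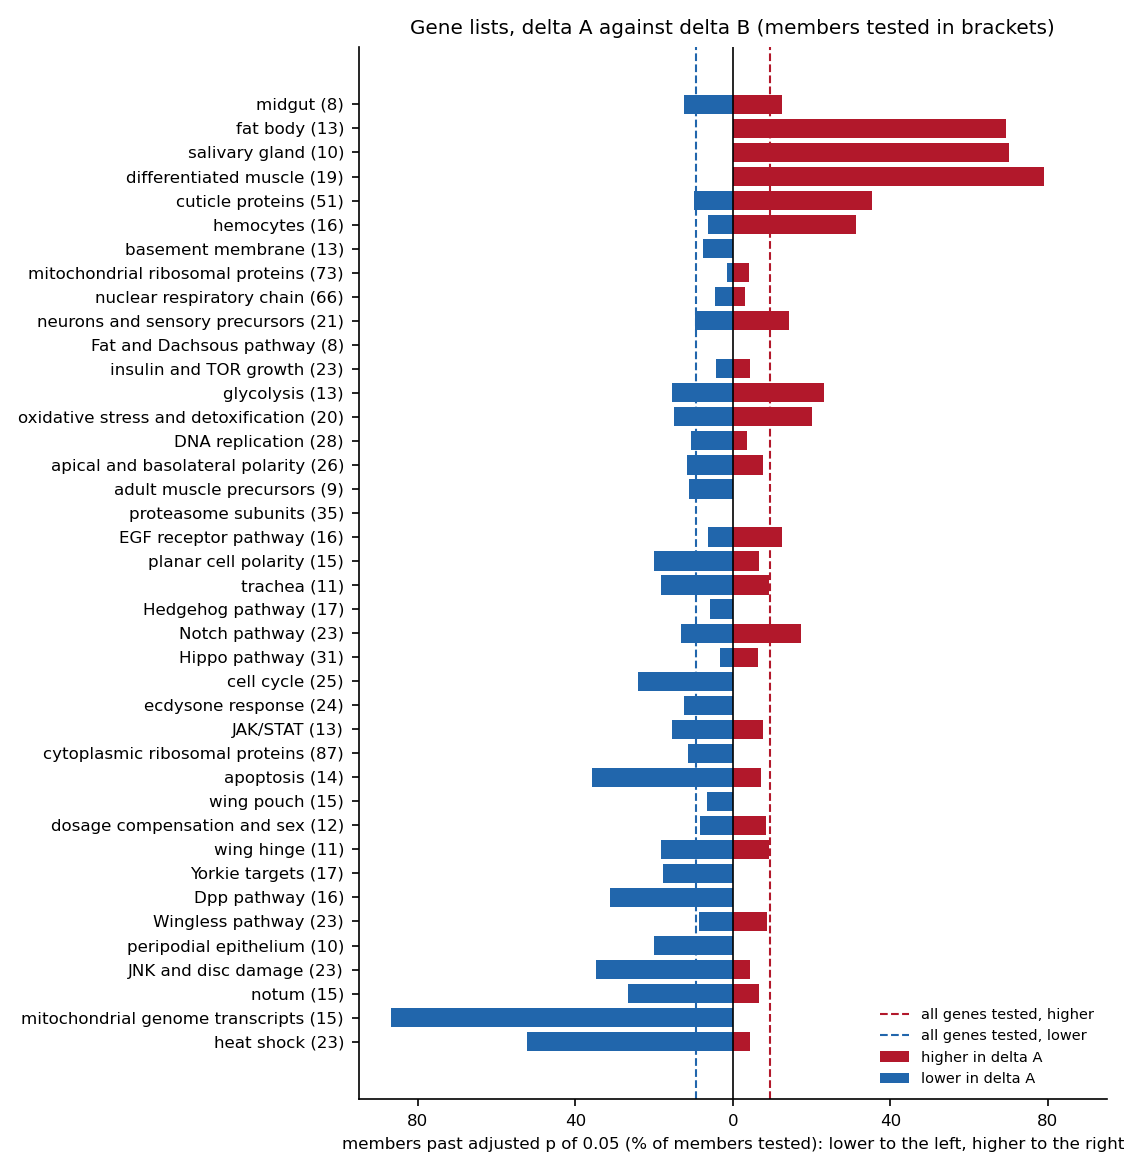
For each gene list with at least 8 members tested (number tested in brackets), bars give the percentage of members past an adjusted p of 0.05 that were higher in delta A (red, to the right) or lower in delta A (blue, to the left). Lists are ordered by median log2 fold change, highest on top. Dashed lines mark the same percentages over all 9482 genes tested, 9.44 and 9.24; differentiated muscle, fat body and salivary gland reach far past the first, and heat shock and mitochondrial genome transcripts past the second.

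The fat transcript itself was read in every library. On genome release 6, ft (FBgn0001075) lies on chromosome 2L from 4198404 to 4221796. Its level was 255, 286, 292 and 483 CPM in delta A, against 237, 221 and 268 CPM in delta B. Delta A 4 was the highest of all and the ranges of the labels overlapped, with a log2 fold change of 0.44 (SE 0.23, adjusted p = 0.196). Without delta A 4 it was 0.19 (adjusted p = 0.133). Because the lesions are not described, ft reads do not check the labels. On a scale fitted to all 42 libraries, ft stood at 278 to 319.9 CPM in delta A 1 to 3 and 243 to 284 CPM in delta B 1 to 3, against 243 to 283 CPM in delta C, 222 to 259 CPM in delta F and 463 to 675 CPM in wild type.

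None of the 8 genes of the Fat and Dachsous pathway passed the threshold in edgeR's test with all 7 libraries. At an unadjusted p under 0.05 there was 1, and DESeq2's Wald test called 1, the gene d. In a fit without delta A 4, 6 of the 8 passed, 3 higher and 3 lower in delta A. The list's median log2 fold change was 0.035 with all libraries and -0.024 without delta A 4. The gene for the ligand Dachsous, ds, had 179.6, 200.1, 226 and 434 CPM in delta A, against 164, 153 and 176 CPM in delta B. The log2 fold change of ds was 0.66 (adjusted p = 0.162), or 0.29 (adjusted p = 0.0497) without delta A 4. All 4 delta A values of ds lay above the range of delta B 1 to 3. On the scale of all 42 libraries ds was at 196 to 247 CPM in delta A 1 to 3 and 455 CPM in delta A 4. It was at 169 to 186 CPM in delta B 1 to 3 but at 1340 CPM in delta B 4. The other labels had 109 to 123 CPM in delta C, 155 to 174 CPM in delta F and 1419 to 1682 CPM in wild type. The kinase gene fj had 173, 198, 199.7 and 268 CPM in delta A, against 248, 212 and 212 CPM in delta B, with overlapping ranges (log2 fold change -0.094, adjusted p = 0.684). The gene for Dachs, d, had 153, 167, 171 and 271 CPM in delta A, against 261, 285 and 313 CPM in delta B. Delta A 1 to 3 lay below every delta B library and delta A 4 within their range. For d the adjusted p was 0.0814 with all libraries (log2 fold change -0.59) and 0.000352 without delta A 4 (log2 fold change -0.81). The same arrangement of libraries held for app, a palmitoyltransferase that acts on Fat and Dachs, at 28.01, 31.02, 29.7 and 41.02 CPM in delta A, against 39.3, 38.03 and 41.1 CPM in delta B (without delta A 4, log2 fold change -0.42, adjusted p = 0.00594). The casein kinase gene dco, whose product phosphorylates Fat, had 12.4, 14.4, 13.9 and 33.7 CPM in delta A, against 22.6, 20.7 and 24.5 CPM in delta B. Delta A 4 was its highest library (without it, log2 fold change -0.74, adjusted p = 0.00223). In lft, whose product raises Fat and Dachsous levels, delta A 1 to 3 were the highest libraries and delta A 4 the lowest. Its levels were 155, 156, 146 and 104 CPM in delta A, against 115, 125 and 125 CPM in delta B (without delta A 4, log2 fold change 0.32, adjusted p = 0.00572).

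Of 17 Yorkie targets 3 (17.6%) were lower in delta A and none was higher, with a median log2 fold change of -0.32. Over all genes tested 18.7% were called, 9.24% as lower. In the fit without delta A 4, 9 of 16 tested were lower and none was higher (median -0.40). That fit called 22.9% of all genes as lower. Diap1, an inhibitor of apoptosis, had 443, 429, 414 and 424 CPM in delta A, against 519, 553 and 605 CPM in delta B; the groups did not overlap (log2 fold change -0.39, SE 0.078, adjusted p = 0.0178). The ligand gene wg had 132, 137, 131 and 137 CPM in delta A, against 181, 173 and 179 CPM in delta B, and every delta A library was below every delta B library (log2 fold change -0.40, SE 0.066, adjusted p = 0.0087). For upd2, which encodes a JAK/STAT ligand, the values were low, at 0.0958, 0.163, 0.156 and 0.516 CPM in delta A, against 0.319, 1.68 and 4.37 CPM in delta B, and delta A 4 lay within the delta B range (log2 fold change -3.24, SE 0.92, adjusted p = 0.0493). The feedback target ex had 160.3, 173, 179 and 296 CPM in delta A, against 252, 236 and 266 CPM in delta B. Here delta A 1 to 3 were below, and delta A 4 above, all 3 delta B libraries. For ex the log2 fold change was -0.32 (adjusted p = 0.316) with delta A 4 and -0.57 (adjusted p = 0.000981) without it. On the scale of all 42 libraries ex was at 175 to 196 CPM in delta A 1 to 3 and 311 CPM in delta A 4. It was at 260 to 282 CPM in delta B 1 to 3 but at 1253 CPM in delta B 4. The other labels had 98.6 to 109 CPM in delta C, 205 to 242 CPM in delta F and 1455 to 1645 CPM in wild type. CycE, which drives entry into S phase, had 52.8, 52.9, 60.97 and 69.6 CPM in delta A, against 74.8, 65.1 and 68.9 CPM in delta B (adjusted p = 0.2; without delta A 4, log2 fold change -0.33, adjusted p = 0.0216). Levels of the growth regulator Myc were 299, 358, 303 and 375 CPM in delta A, against 340.1, 285 and 384 CPM in delta B and overlapped (log2 fold change -0.01, adjusted p = 0.962). Those of kibra, a Hippo activator, overlapped too, at 38.1, 38.6, 40.5 and 57.6 CPM in delta A, against 41.3, 44.6 and 66.01 CPM in delta B (adjusted p = 0.498). The call of Diap1 was lost without delta A 3 (0.0566), delta B 2 (0.071) or delta B 3 (0.0512), and that of upd2 without delta A 1, 2 or 3 or delta B 2 or 3 (adjusted p up to 0.176). Without delta B 3 the log2 fold change of upd2 was -2.15. The calls of Diap1, wg and upd2 were lost with delta B 4 added (adjusted p = 0.0824, 0.124 and 0.122). The change of wg did not pass with the length trend removed (log2 fold change -0.23, adjusted p = 0.127).

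**Figure D3:**
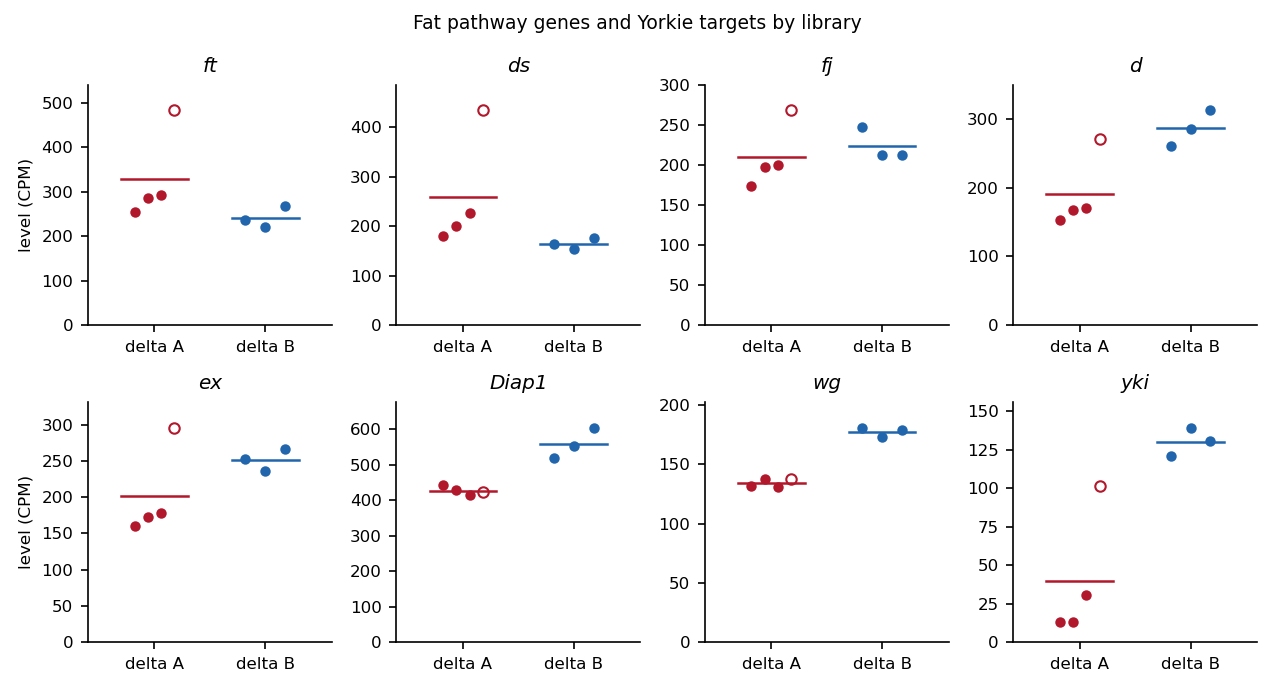
Levels in CPM (counts scaled to library size) of 8 genes of the Fat pathway and Yorkie targets in delta A (red) and delta B (blue), 1 point per library with a line at the mean of the label, on axes that start at 0. The open point is delta A 4. It is the highest library for ft, ds, fj and ex, while for Diap1 and wg the 4 delta A points lie together below the 3 delta B points.

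In the Hippo pathway 2 of 31 genes were higher and 1 was lower in delta A, 9.68% in all, against 18.7% of all genes tested. Slik, a Sterile-20 family kinase gene, had 23.5, 25.7, 29.7 and 28.1 CPM in delta A, against 11.9, 10.2 and 10.1 CPM in delta B without overlap (log2 fold change 1.31, SE 0.13, adjusted p = 0.00125). The scaffold gene sav had 42.6, 39.4, 43.96 and 46.4 CPM in delta A, against 63.4, 63.6 and 60.9 CPM in delta B, again without overlap (log2 fold change -0.54, SE 0.085, adjusted p = 0.00746). For wap the groups came close, at 145, 166, 134 and 146 CPM in delta A, against 126, 109.9 and 113 CPM in delta B (log2 fold change 0.34, SE 0.10, adjusted p = 0.0499). That call was lost whichever of delta A 1 to 3 and delta B 1 to 3 was left out (adjusted p up to 0.181). The gene for Yorkie itself, yki, did not pass with all libraries (log2 fold change -1.72, SE 0.70, adjusted p = 0.123). It had 13.5, 13.2, 31.1 and 101 CPM in delta A, against 121, 139.6 and 131 CPM in delta B; delta A 1 to 3 were far below the delta B libraries and delta A 4 was just below them. In the fit without delta A 4 the change of yki passed (log2 fold change -2.77, adjusted p = 0.00061). In that fit the pathway held 4 higher and 11 lower genes. The calls of sav and wap were lost with delta B 4 added (adjusted p = 0.107 and 0.918). With delta B 4 added, the log2 fold change of Slik changed sign, to -1.62 (adjusted p = 0.412).

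Of 15 planar cell polarity genes 1 was higher and 3 were lower in delta A (3 and 5 without delta A 4). Among the core genes, dgo had 32.4, 32.7, 32.1 and 36.8 CPM in delta A, against 49.2, 54.8 and 53.7 CPM in delta B (log2 fold change -0.65, SE 0.091, adjusted p = 0.00466), so all of delta A was lower. The core gene dsh, which also acts in Wingless signalling, was higher in delta A, at 7.92, 7.77, 7.36 and 3.30 CPM in delta A, against 2.42, 2.34 and 2.79 CPM in delta B (log2 fold change 1.39, SE 0.34, adjusted p = 0.0307). Of the effectors that place wing hairs, in and mwh were lower, while fy and frtz did not pass (log2 fold changes -0.18 and -0.10, adjusted p = 0.206 and 0.442). The first, in, had 51.1, 52.6, 54.2 and 61.4 CPM in delta A, against 65.7, 73.1 and 78.01 CPM in delta B (log2 fold change -0.40, SE 0.10, adjusted p = 0.0352). The other, mwh, had 2.94, 1.53, 3.04 and 2.01 CPM in delta A, against 4.69, 5.91 and 16.03 CPM in delta B (log2 fold change -1.89, SE 0.48, adjusted p = 0.0347). The span of mwh overlaps several lysozyme genes on the same strand, so its counts are uncertain. The calls of dsh and in were lost when any 1 of the libraries other than delta A 4 was left out (adjusted p up to 0.121 and 0.118), and that of mwh without delta A 1, 2 or 3 or delta B 2 or 3 (up to 0.0936). With delta B 4 added the log2 fold change of dsh was -1.98 (adjusted p = 0.37). On the scale of all libraries dsh was at 8.05 to 8.65 CPM in delta A 1 to 3 and 3.47 CPM in delta A 4. It was at 2.58 to 2.95 CPM in delta B 1 to 3, 3.86 to 4.59 CPM in delta C and 2.73 to 3.59 CPM in delta F. All of these lay far below delta B 4 (103 CPM) and wild type (84.7 to 108 CPM). The calls of in and mwh were lost with delta B 4 added (adjusted p = 0.095 and 0.203). The adjusted p of in was 0.101 with the length trend removed, and without delta B 3 the log2 fold change of mwh was -1.16.

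Heat shock genes were lower in delta A than in delta B: 12 of 23 were lower and 1 was higher, with a median log2 fold change of -2.34, and 19 were lower without delta A 4. Their summed level was 14809 to 18367 CPM in delta A and 33625 to 38657 CPM in delta B. DnaJ-1, an Hsp40 co-chaperone, had 50.6, 57.8, 51.9 and 56.9 CPM in delta A, against 304, 257 and 267 CPM in delta B, a tight group on each side and no overlap (log2 fold change -2.34, SE 0.094, adjusted p = 3.86e-05). The co-chaperone gene stv had 32.5, 68.3, 42.2 and 39.2 CPM in delta A, against 386, 395 and 524 CPM in delta B (log2 fold change -3.25, SE 0.27, adjusted p = 0.000665). Hsp83, the fly Hsp90, was abundant in both labels, at 5145, 4987, 5001 and 5573 CPM in delta A, against 8421, 8556 and 8409.9 CPM in delta B, and lower in delta A (log2 fold change -0.71, SE 0.07, adjusted p = 0.00134). Of the inducible Hsp70 genes, Hsp70Aa had 0, 2.55, 5.76 and 0 CPM in delta A, against 1316, 467 and 456 CPM in delta B (log2 fold change -8.48, SE 1.56, adjusted p = 0.0126). Without delta A 3 or delta B 1 that value was -9.70 and -7.79, and Hsp70Ba, another copy, had -8.98 with all libraries (adjusted p = 0.00284), -10.44 without delta A 3 and -7.87 without delta B 1. Since 6 near-identical copies share reads, their sum is firmer: 7.03, 342, 543 and 72.2 CPM in delta A, against 7513, 3015 and 2761 CPM in delta B. The sum was 18.4 times as large in delta B by the means, or 31.6 times without delta A 3 and 11.98 times without delta B 1. Every delta A library lay below every delta B library, and the exact two-sided permutation test gave p = 0.0571, the smallest that 4 against 3 libraries allow. Hsp70Aa and Hsp70Ba were named by a rule that requires no overlap in these same libraries. The p of the sum is therefore not separate support. The exception was l(2)efl, a small heat shock protein gene, which had 7.57, 5.16, 10.1 and 5.57 CPM in delta A, against 0.797, 0.637 and 0.538 CPM in delta B and was higher in delta A (log2 fold change 3.43, SE 0.35, adjusted p = 0.00147).

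Set beside the other labels, on the scale of all 42 libraries, DnaJ-1 stood at 55.3 to 64.2 CPM in delta A 1 to 3 and 59.7 CPM in delta A 4, against 282 to 325 CPM in delta B 1 to 3. It stood at 37.8 CPM in delta B 4, 51.2 to 58.8 CPM in delta C, 49.2 to 60.9 CPM in delta F and 41.7 to 46.02 CPM in wild type. For this gene delta B 1 to 3 lay above all other libraries shown. The same held for Hsp83, with 5469 to 5619 CPM in delta A 1 to 3, 5849 CPM in delta A 4 and 8892 to 9427 CPM in delta B 1 to 3, against 5701 CPM in delta B 4, 4480.3 to 4983 CPM in delta C, 5192 to 5655 CPM in delta F and 4662 to 5414 CPM in wild type. With delta B 4 added to delta B, the adjusted p was 0.0775 for DnaJ-1, 0.0177 for stv and 0.167 for Hsp83. The call of Hsp70Aa was lost with delta B 4 added (adjusted p = 0.0994).

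Genes of the JNK pathway, which responds to tissue damage, followed the same direction: 8 of 23 were lower and 1 was higher in delta A (median log2 fold change -0.78). The fit without delta A 4 gave 10 lower and 2 higher of 22 tested. The pathway's feedback phosphatase gene puc had 44.8, 51.2, 46.8 and 51.4 CPM in delta A, against 113, 114 and 134 CPM in delta B (log2 fold change -1.31, SE 0.10, adjusted p = 0.000554). Its transcription factor gene Jra, the fly Jun, had 46.9, 49.3, 47.03 and 41.4 CPM in delta A, against 93.1, 108 and 124 CPM in delta B (log2 fold change -1.23, SE 0.12, adjusted p = 0.00119). The stress gene Gadd45 had 48.6, 51.5, 46.99 and 43.3 CPM in delta A, against 105, 110 and 113 CPM in delta B (log2 fold change -1.20, SE 0.086, adjusted p = 0.000532). None of these overlapped between the labels. The gene for Fos, the partner of Jra, kay, was chosen after its values were seen: it had 27.7, 30.9, 30.3 and 135 CPM in delta A, against 257, 289 and 496 CPM in delta B (log2 fold change -2.64, SE 0.63, adjusted p = 0.0297), with delta A 4 between the other delta A libraries and delta B. Without delta A 4 the log2 fold change of kay was -3.56 (adjusted p = 4.10e-05). The call of kay was lost when any 1 of the libraries other than delta A 4 was left out (adjusted p up to 0.107). Mmp1, a matrix metalloproteinase gene that JNK is known to induce, was also chosen after its values were seen. It went the other way, at 80.2, 103, 132 and 81.01 CPM in delta A, against 28.8, 37.2 and 41.05 CPM in delta B (log2 fold change 1.47, SE 0.22, adjusted p = 0.00588). The calls of Gadd45 and Mmp1 were lost with delta B 4 added (adjusted p = 0.0618 and 0.302).

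Of 14 apoptosis genes 5 were lower and 1 was higher in delta A. The death gene rpr had 11.2, 13.2, 11.1 and 9.03 CPM in delta A, against 22.9, 28.4 and 29.7 CPM in delta B and every delta A library was lower (log2 fold change -1.28, SE 0.16, adjusted p = 0.00317). The effector caspase gene Drice had 111, 105, 101 and 98.8 CPM in delta A, against 146, 141 and 151 CPM in delta B (log2 fold change -0.49, SE 0.075, adjusted p = 0.00664). Debcl, of the Bcl-2 family, had 46.2, 46.5, 46.6 and 43.8 CPM in delta A, against 69.4, 75.9 and 58.2 CPM in delta B (log2 fold change -0.57, SE 0.10, adjusted p = 0.0128). Diap1, which blocks caspases, was lower in delta A too, as given above. Dredd, an initiator caspase of the immune response, was higher, at 64.01, 60.3, 56.6 and 54.6 CPM in delta A, against 36.8, 39.6 and 32.5 CPM in delta B (log2 fold change 0.70, SE 0.10, adjusted p = 0.00627). The list therefore holds genes that promote and genes that prevent cell death among those that were lower. The calls of rpr, Dredd and Drice were lost with delta B 4 added (adjusted p = 0.197, 0.463 and 0.231). Without delta B 2 the adjusted p of Debcl was 0.0602. Across labels, rpr was at 12.1 to 14.7 CPM in delta A 1 to 3, 9.48 CPM in delta A 4 and 24.5 to 31.4 CPM in delta B 1 to 3. It was at 6.92 CPM in delta B 4, 12.5 to 16.2 CPM in delta C, 12.3 to 13.6 CPM in delta F and 5.54 to 7.01 CPM in wild type.

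**Figure D4:**
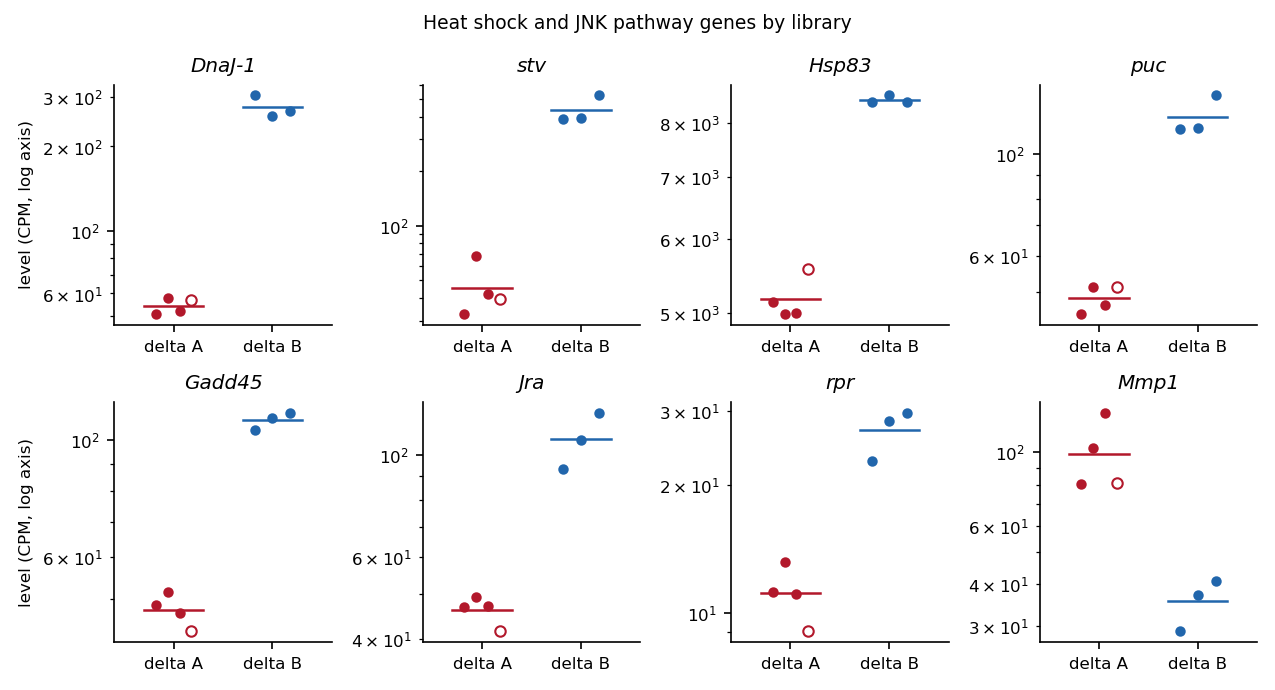
Levels (CPM, log axis) of heat shock genes DnaJ-1, stv and Hsp83, of JNK pathway genes puc, Gadd45, Jra and Mmp1, and of the death gene rpr, in delta A (red, open point delta A 4) and delta B (blue), with lines at the label means. In each panel the 4 delta A points lie apart from the 3 delta B points, below them in all but Mmp1.

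Transcripts of the mitochondrial genome were lower in delta A for 13 of 15 genes tested, and none was higher (median log2 fold change -1.39). The list includes both mitochondrial ribosomal RNAs, whose counts entered the rule that chose the libraries. The protein-coding mt:ND5, of respiratory complex I, had 144, 179, 125 and 83.7 CPM in delta A, against 633, 519.6 and 529 CPM in delta B (log2 fold change -2.08, SE 0.24, adjusted p = 0.00245). The ATP synthase gene mt:ATPase6 had 259, 315, 222 and 127 CPM in delta A, against 1239.8, 1121 and 1055 CPM in delta B (log2 fold change -2.30, SE 0.28, adjusted p = 0.00291). The complex I gene mt:ND2 had 1.18, 1.83, 0.623 and 0.155 CPM in delta A, against 30.3, 24.6 and 23.6 CPM in delta B (log2 fold change -4.73, SE 0.59, adjusted p = 0.00317). For mt:ND4L, which overlaps mt:ND4, the levels were 0.160, 0.620, 0.0779 and 0.103 CPM in delta A, against 14.1, 11.8 and 13.9 CPM in delta B (log2 fold change -5.70, SE 0.63, adjusted p = 0.00215). All of these ranges were separate, and delta A 4 was the lowest delta A library for mt:ND5, mt:ATPase6 and mt:ND2. On the scale of all libraries mt:ND5 was at 136 to 199 CPM in delta A 1 to 3, against 559 to 677 CPM in delta B 1 to 3 and 14.5 CPM in delta B 4. It was at 702 to 859 CPM in delta C, 722 to 755 CPM in delta F and 22.3 to 139.9 CPM in wild type, so delta C and delta F were on the side of delta B 1 to 3. With delta B 4 added the adjusted p was 0.267 for mt:ND5 and 0.111 for mt:ND2. The calls of mt:ATPase6 and mt:ND4L were lost with delta B 4 added (adjusted p = 0.247 and 0.0633). Without delta A 2 the log2 fold change of mt:ND4L was -6.77. Of 66 nuclear genes of the respiratory chain 2 were higher and 3 were lower in delta A (median 0.05). These counts depended on the fit. Leaving out delta A 4 gave 22 higher and 9 lower of 64 (median 0.14). Removing the length trend gave 1 higher and 17 lower (median -0.22).

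Some genes were far lower in delta A 1 to 3 than in both delta A 4 and delta B, and passed without delta A 4 but not with all 7 libraries. Those named here were chosen after their values were seen. Hsc70-4, a constitutive chaperone gene, had 90.3, 84.3, 104 and 4477 CPM in delta A, against 6653, 6683 and 7571 CPM in delta B (log2 fold change -2.55, SE 1.48, adjusted p = 0.245). In the fit without delta A 4 its change was -6.24 (adjusted p = 1.11e-07). The X-linked gene Spx, of the splicing machinery, had 1.92, 1.63, 2.84 and 101 CPM in delta A, against 140, 139 and 146 CPM in delta B. The X-linked spindle gene mei-38 had 0.990, 0.718, 1.28 and 59.3 CPM in delta A, against 94.4, 86.6 and 85.2 CPM in delta B. Leaving out delta A 4 gave log2 fold changes of -6.08 and -6.49 for these (adjusted p = 0.261 and 0.253 with it, 4.99e-07 and 3.36e-07 without). On the scale of all libraries Hsc70-4 was at 93.7 to 114 CPM in delta A 1 to 3 and at 4698 CPM in delta A 4. It was at 3630.4 to 6532 CPM in delta C, 6597 to 6918 CPM in delta F and 10661 to 15791 CPM in wild type. For these 3 genes, delta A 4 thus lay nearer to the other labels than to delta A 1 to 3.

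Genes that pattern the notum, the body wall part of the disc, included more lower than higher ones in delta A: 4 of 15 passed as lower and 1 as higher, with a median log2 fold change of -1.24. In the fit without delta A 4, 10 were lower. The dorsal homeobox gene Dr had 17.2, 16.3, 16.9 and 38.9 CPM in delta A, against 76.02, 90.3 and 167 CPM in delta B (log2 fold change -2.32, SE 0.41, adjusted p = 0.0106). The notum selector gene tup had 3.83, 3.85, 4.79 and 11.9 CPM in delta A, against 20.9, 19.4 and 20.4 CPM in delta B. The Pax family gene eyg had 17.9, 15.7, 19.3 and 39.3 CPM in delta A, against 52.9, 52.8 and 57.6 CPM in delta B. Their adjusted p-values were 0.0286 and 0.0336 (log2 fold changes -1.74 and -1.24). In all of these delta A 4 was the highest delta A library and still below delta B. The neurogenic gene bib had 114, 117, 135 and 153 CPM in delta A, against 210.1, 203 and 230 CPM in delta B (log2 fold change -0.72, SE 0.12, adjusted p = 0.00873). In contrast mirr, of the Iroquois complex, was higher in delta A, at 84.9, 81.8, 96.7 and 119.6 CPM in delta A, against 57.8, 47.8 and 49.00 CPM in delta B (log2 fold change 0.89, SE 0.16, adjusted p = 0.0102). The calls of tup and eyg were lost when any 1 of the libraries other than delta A 4 was left out (adjusted p up to 0.0908 and 0.11), and that of mirr without delta B 2 (0.0562) or delta B 3 (0.0557).

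In the hinge, which joins wing and notum, 2 of 11 genes were lower and 1 was higher. Dr and eyg, already given, were the lower ones. The fit without delta A 4 gave 6 lower and 1 higher. The hinge factor zfh2 was higher in delta A, at 174, 199, 181 and 307 CPM in delta A, against 124, 106 and 135 CPM in delta B (log2 fold change 0.82, SE 0.22, adjusted p = 0.039), and lost its call without delta A 2 or 3 or any delta B library (adjusted p up to 0.141). With delta B 4 added its log2 fold change was -0.36 (adjusted p = 0.76), as delta B 4 had 787 CPM on the scale of all libraries. Of 15 genes of the wing pouch, the future blade, 1 was lower in delta A and none was higher. It was the homeobox gene dve, chosen after its values were seen, with 21.9, 25.3, 22.5 and 65.4 CPM in delta A, against 84.3, 83.2 and 104 CPM in delta B (log2 fold change -1.42, SE 0.40, adjusted p = 0.0483); its call was lost when any 1 library other than delta A 4 was left out (adjusted p up to 0.151). The call of dve was lost with delta B 4 added (adjusted p = 0.0624). In the fit without delta A 4, 9 pouch genes were lower and 1 was higher (median -0.51). The calls of tup, eyg, bib and mirr were lost with delta B 4 added (adjusted p = 0.0962, 0.155, 0.291 and 0.928). Across labels mirr was at 90.9 to 106 CPM in delta A 1 to 3, 125 CPM in delta A 4 and 51.8 to 61.8 CPM in delta B 1 to 3, against 219.7 CPM in delta B 4 and 214 to 272 CPM in wild type.

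Genes of the Dpp pathway, the morphogen signal that runs along the anterior-posterior axis of the disc, were lower in delta A in 5 of 16 cases and higher in none. The fit without delta A 4 gave 11 lower and none higher. The receptor gene tkv had 375, 394, 402 and 417 CPM in delta A, against 629, 643 and 676 CPM in delta B (log2 fold change -0.71, SE 0.072, adjusted p = 0.00147). The secreted modulator gene magu had 139, 133, 135 and 137 CPM in delta A, against 228, 228 and 227 CPM in delta B, with little spread in either label (log2 fold change -0.74, SE 0.063, adjusted p = 0.000761). The repressor gene brk had 49.5, 53.9, 58.9 and 72.3 CPM in delta A, against 117, 95.3 and 118 CPM in delta B (log2 fold change -0.91, SE 0.15, adjusted p = 0.00845). The signal transducer gene Mad had 139, 148, 138 and 123 CPM in delta A, against 175, 181 and 180.1 CPM in delta B (log2 fold change -0.38, SE 0.082, adjusted p = 0.0209). None of the 4 overlapped between labels. The call of Mad was lost without delta A 1 or 3 or any delta B library (adjusted p up to 0.0918). The call of Mad was lost with delta B 4 added (adjusted p = 0.349). Its adjusted p was 0.452 with the length trend removed. The members called include the receptor and transducer as well as brk, which represses the pathway's targets.

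In the Notch pathway 4 of 23 genes were higher and 3 were lower in delta A (6 and 10 without delta A 4). E(spl)mgamma-HLH, a target gene of Notch, had 21.1, 16.7, 21.1 and 16.00 CPM in delta A, against 4.24, 5.95 and 5.19 CPM in delta B (log2 fold change 1.86, SE 0.18, adjusted p = 0.00138). The target gene E(spl)m4-BFM had 12.2, 8.75, 10.4 and 7.48 CPM in delta A, against 3.32, 2.63 and 1.30 CPM in delta B (log2 fold change 2.003, SE 0.36, adjusted p = 0.0111). The gene for Fringe, fng, which modifies Notch, was lower, at 139, 131, 141 and 139 CPM in delta A, against 203, 194 and 173 CPM in delta B (log2 fold change -0.47, SE 0.081, adjusted p = 0.0103). In the Wingless pathway 2 of 23 genes were higher and 2 were lower (3 and 12 without delta A 4). The ligand genes wg, given above, and Wnt6 were lower. The level of Wnt6 was 26.5, 30.99, 35.7 and 35.8 CPM in delta A, against 47.5, 52.8 and 46.2 CPM in delta B (log2 fold change -0.60, SE 0.13, adjusted p = 0.0209). With all 7 libraries the higher genes were dsh and lgs, a cofactor of Armadillo. The levels of lgs were 143, 157, 146 and 173 CPM in delta A, against 112, 109 and 111 CPM in delta B (log2 fold change 0.48, SE 0.089, adjusted p = 0.0125). Of 17 Hedgehog pathway genes 1 was lower (8 without delta A 4) and none was higher. With all 7 libraries the lower gene was boi, which encodes a co-receptor and was chosen after its values were seen. It had 77.8, 95.4, 91.4 and 137 CPM in delta A, against 175, 177 and 209.9 CPM in delta B (log2 fold change -0.90, SE 0.19, adjusted p = 0.0205). Without delta B 2 the adjusted p was 0.0574 for fng, 0.0541 for E(spl)m4-BFM, 0.0664 for lgs, 0.0886 for Wnt6 and 0.0654 for boi. The calls of lgs and of boi were also lost without delta B 3 (0.0568 and 0.0851), and that of Wnt6 without delta A 2 (0.0649), delta B 1 (0.0582) or delta B 3 (0.0607). That of boi was lost as well without delta A 2 (0.0598), delta A 3 (0.0567) or delta B 1 (0.0523). The calls of lgs and Wnt6 were lost with delta B 4 added (adjusted p = 0.182 and 0.488).

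Of 25 cell cycle genes 6 were lower in delta A and none was higher (10 and 1 without delta A 4). With the length trend removed 2 were lower. The mitotic cyclin gene CycB3 had 107, 114, 114 and 104 CPM in delta A, against 168, 164 and 145 CPM in delta B (log2 fold change -0.53, SE 0.084, adjusted p = 0.0074). The activators of the anaphase-promoting complex, fzy and fzr, were lower too. The levels of fzy were 90.1, 89.7, 90.6 and 95.7 CPM in delta A, against 131, 124 and 117 CPM in delta B. Those of fzr were 44.9, 43.4, 45.01 and 46.5 CPM in delta A, against 58.4, 58.5 and 59.6 CPM in delta B. Their log2 fold changes were -0.44 and -0.39 (adjusted p = 0.00949 and 0.0133). The cytokinesis gene tum had 218, 213, 205 and 204 CPM in delta A, against 265, 272 and 246 CPM in delta B (log2 fold change -0.31, SE 0.072, adjusted p = 0.0257). Among 28 DNA replication genes 1 was higher and 3 were lower (3 and 6 without delta A 4). Without delta B 2 the adjusted p was just over 0.05 for fzy, 0.0615 for fzr and 0.116 for tum, and tum also missed the threshold without delta A 1, 2 or 3 or delta B 1 (up to 0.0768). The calls of fzy, fzr and tum were lost with delta B 4 added (adjusted p = 0.227, 0.0511 and 0.147). With the length trend removed it was 0.0806 for CycB3, 0.0658 for fzr and 0.145 for tum.

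Glycolysis genes went both ways, 3 of 13 higher and 2 lower in delta A. Gapdh2, a glyceraldehyde phosphate dehydrogenase gene, had 1775, 1759, 1764 and 1477 CPM in delta A, against 1117, 1075 and 1170 CPM in delta B (log2 fold change 0.60, SE 0.091, adjusted p = 0.00662). The gene Pglym78, for phosphoglycerate mutase, had 126, 120.5, 141 and 126 CPM in delta A, against 91.5, 93.6 and 81.7 CPM in delta B (log2 fold change 0.53, SE 0.091, adjusted p = 0.00964). The phosphofructokinase gene Pfk had 168, 175, 199 and 224 CPM in delta A, against 141, 136 and 125 CPM in delta B (log2 fold change 0.52, SE 0.12, adjusted p = 0.0253). The aldolase gene Ald was lower, with 708, 687, 706 and 688 CPM in delta A, against 1013, 1032 and 1052 CPM in delta B (log2 fold change -0.57, SE 0.063, adjusted p = 0.0022). Of 24 ecdysone response genes 3 were lower and none was higher (10 and 1 without delta A 4). ImpE2, induced by ecdysone in discs, had 4099, 4028, 4659 and 4738 CPM in delta A, against 5763, 5979 and 7605 CPM in delta B (log2 fold change -0.56, SE 0.12, adjusted p = 0.0216). The transcription factor gene vri had 40.5, 52.3, 49.8 and 48.8 CPM in delta A, against 87.8, 87.8 and 59.96 CPM in delta B (log2 fold change -0.71, SE 0.16, adjusted p = 0.0241). ImpL1, another gene that ecdysone induces, had 0.128, 1.08, 0.857 and 0.413 CPM in delta A, against 2.68, 2.57 and 6.65 CPM in delta B (log2 fold change -2.67, SE 0.69, adjusted p = 0.0368). Calls were lost without 1 library for Pfk (delta A 3 or any delta B library, adjusted p up to 0.107) and ImpE2 (any but delta A 4 and delta B 1, up to 0.0629). The same happened for vri (any but delta A 4 and delta B 3, up to 0.0978) and ImpL1 (delta A 3 or any delta B library, up to 0.136). Without delta B 3 the log2 fold change of ImpL1 was -2.08. The calls of Ald, Pfk, ImpE2, vri and ImpL1 were lost with delta B 4 added (adjusted p = 0.196, 0.794, 0.858, 0.0582 and 0.155). On the scale of all libraries ImpE2 was at 4475 to 5095 CPM in delta A 1 to 3 and 6160 to 8041 CPM in delta B 1 to 3. It was at 5391 to 8477 CPM in delta C and 3882 to 6962 CPM in delta F, but at 805 CPM in delta B 4 and 402 to 561 CPM in wild type. With the length trend removed the adjusted p of vri was 0.0955. Of 87 cytoplasmic ribosomal protein genes 10 were lower and none was higher (21 and 8 without delta A 4). With the trend with transcript length removed, which called 26.6% of all genes and 14.5% as lower, 47 were lower.

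Among the lists of other tissues, those of differentiated muscle, fat body and salivary gland were mostly higher in delta A. Some others were not: of 21 neuronal and sensory genes 3 were higher and 2 lower (median 0.044), of 11 tracheal genes 1 was higher and 2 lower (median -0.11), and of 4 testis genes tested 2 were lower (median -0.52). The fit without delta A 4 gave 4 higher and 5 lower of 20 neuronal and sensory genes. For tracheal genes it gave 1 higher and 5 lower. Of 19 genes of differentiated muscle 15 were higher and none was lower (median log2 fold change 2.76). Their summed level was 986 to 1223 CPM in delta A and 476 to 502 CPM in delta B. The myosin light chain gene Mlc2 had 174, 99.1, 179.9 and 109 CPM in delta A, against 15.8, 13.8 and 12.2 CPM in delta B (log2 fold change 3.33, SE 0.27, adjusted p = 0.000652). The actin gene Act57B had 120.5, 63.8, 130.1 and 127 CPM in delta A, against 16.5, 16.4 and 15.8 CPM in delta B (log2 fold change 2.76, SE 0.26, adjusted p = 0.00119). Troponin genes were higher as well: up had 30.6, 22.4, 28.9 and 26.9 CPM in delta A, against 3.80, 2.66 and 1.55 CPM in delta B (log2 fold change 3.35, SE 0.31, adjusted p = 0.00108). The troponin C gene TpnC47D had 4.18, 1.89, 3.47 and 4.33 CPM in delta A, against 0, 0.0637 and 0.0633 CPM in delta B (log2 fold change 6.16, SE 0.70, adjusted p = 0.00238). All 4 genes were high in every delta A library. On the scale of all libraries Mlc2 was at 110 to 197 CPM in delta A 1 to 3, against 12.9 to 16.9 CPM in delta B 1 to 3, 13.7 to 129 CPM in delta C and 7.85 to 11.1 CPM in wild type. The libraries of delta C span both levels, and those of delta F were at 10.4 to 18.1 CPM. Of 9 adult muscle precursor genes, which label the myoblasts of the disc, 1 was lower and none was higher (median -0.056). The fit without delta A 4 gave 3 lower and none higher.

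Of 13 genes of the larval fat body 9 were higher in delta A and none was lower (median log2 fold change 5.14). When delta A 4 was left out 9 were higher and 2 were lower (median 4.06). Their summed level was 1081 to 17052 CPM in delta A and 602 to 739 CPM in delta B. The fat body protein gene Fbp2 had 545, 119, 187 and 1186 CPM in delta A, against 5.97, 8.97 and 10.3 CPM in delta B (log2 fold change 5.92, SE 0.96, adjusted p = 0.00823). The gene apolpp, the lipophorin precursor of the hemolymph, had 109, 15.6, 15.1 and 503 CPM in delta A, against 0.638, 0.765 and 1.71 CPM in delta B (log2 fold change 7.28, SE 1.67, adjusted p = 0.0256). The odorant-binding protein gene Obp99b had 604, 155, 196 and 1720.1 CPM in delta A, against 13.9, 14.9 and 28.2 CPM in delta B (log2 fold change 5.14, SE 1.02, adjusted p = 0.017). The alcohol dehydrogenase gene Adh had 22.6, 3.10, 5.88 and 63.6 CPM in delta A, against 0.861, 0.404 and 0.919 CPM in delta B (log2 fold change 5.05, SE 1.21, adjusted p = 0.0293). The order of the libraries was the same for all 4 at the top: delta A 4 was highest and delta A 1 next. Without delta A 4 the log2 fold changes were 5.06 for Fbp2, 5.50 for apolpp, 4.06 for Obp99b and 3.87 for Adh, all still past the threshold (adjusted p = 0.000685, 0.00367, 0.00151 and 0.00699). The defining genes Lsp1beta, Lsp2 and Fbp1, for larval storage proteins and their receptor, were at 0 in no library. Lsp2, chosen after its values were seen, had 1079, 130.3, 198 and 3785 CPM in delta A, against 9.95, 10.9 and 38.2 CPM in delta B. Its log2 fold change was 6.04 (SE 1.49, adjusted p = 0.0319), or 4.57 (adjusted p = 0.0081) without delta A 4. On the scale of all libraries Fbp2 reached at most 1.66 CPM in delta C, 1.26 CPM in delta F and 1.62 CPM in wild type. The calls of Obp99b and apolpp were lost without any 1 delta B library (adjusted p up to 0.0793 and 0.108), and those of Adh and Lsp2 without delta A 1 or any 1 delta B library (up to 0.116 and 0.123).

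Salivary gland genes were higher in delta A in 7 of 10 cases and lower in none (median 4.75), with summed levels of 256 to 385 CPM in delta A and 136 to 176 CPM in delta B. The genes called encode mainly glue proteins. Sgs8 had 16.4, 20.5, 10.4 and 8.26 CPM in delta A, against 0.287, 0.616 and 0.317 CPM in delta B (log2 fold change 5.05, SE 0.49, adjusted p = 0.00125). Sgs5 had 11.8, 20.9, 6.27 and 9.08 CPM in delta A, against 0.0957, 0.701 and 0.317 CPM in delta B (log2 fold change 4.95, SE 0.73, adjusted p = 0.00564). Sgs7 had 34.9, 65.4, 22.00 and 23.8 CPM in delta A, against 0.383, 1.997 and 0.348 CPM in delta B (log2 fold change 5.26, SE 0.78, adjusted p = 0.00612). Sgs4 had 19.9, 14.5, 11.2 and 8.10 CPM in delta A, against 0.0638, 1.02 and 0.127 CPM in delta B (log2 fold change 4.95, SE 0.89, adjusted p = 0.0113). Here delta A 1 or 2 was the highest library, and delta A 4 was not. Without delta B 2 the log2 fold change was 5.83 for Sgs5, 6.62 for Sgs7 and 7.07 for Sgs4. Of 8 midgut genes tested 1 was higher and 1 was lower, with a median of 6.12, or 0.22 over the 6 tested without delta A 4, of which 3 were higher and 3 were lower. Their summed level was 2.38 to 4881 CPM in delta A and 3.95 to 9.53 CPM in delta B. The digestive protease genes Jon65Aiv and deltaTry, chosen after their values were seen, were high in 2 of the 4 delta A libraries. Jon65Aiv had 895, 0.424, 2.45 and 1722 CPM in delta A, against 0.0319, 0.552 and 0.0950 CPM in delta B (adjusted p = 0.0553). The trypsin gene deltaTry had 468, 0.457, 1.36 and 911 CPM in delta A, against 0, 0.489 and 0.475 CPM in delta B (adjusted p = 0.0616). The libraries high in both, delta A 1 and 4, were also those highest in the fat body genes. Without delta A 2 the adjusted p was 0.0353 for Jon65Aiv and 0.0423 for deltaTry, and without delta A 4 it was 0.0318 and 0.0359; Jon65Aiv also passed without delta A 3 (0.049).

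Of 16 hemocyte genes, which mark blood cells, 5 were higher and 1 was lower in delta A (8 and 2 without delta A 4). Hml, a clotting protein gene, had 10.1, 7.15, 9.46 and 12.8 CPM in delta A, against 2.49, 1.53 and 2.06 CPM in delta B (log2 fold change 2.29, SE 0.28, adjusted p = 0.00317). The phagocytic receptor gene eater had 16.3, 11.7, 9.73 and 8.31 CPM in delta A, against 5.49, 3.25 and 4.09 CPM in delta B (log2 fold change 1.43, SE 0.30, adjusted p = 0.0194). The prophenoloxidase gene PPO1 had 70.9, 19.2, 18.6 and 20.6 CPM in delta A, against 2.55, 3.10 and 5.57 CPM in delta B (log2 fold change 3.11, SE 0.63, adjusted p = 0.0174). Nplp2 was highest in delta A 4, at 9.90, 6.04, 7.98 and 55.3 CPM in delta A, against 1.21, 0.510 and 1.27 CPM in delta B (log2 fold change 4.32, SE 0.996, adjusted p = 0.026). NimC1, another receptor of phagocytes, was lower, at 1.88, 2.22, 2.14 and 1.70 CPM in delta A, against 3.51, 3.08 and 5.23 CPM in delta B (log2 fold change -0.98, SE 0.27, adjusted p = 0.0453). It was chosen after its values were seen, and its call was lost when any 1 library other than delta A 4 was left out (adjusted p up to 0.127). Without delta A 4 the log2 fold change of Nplp2 was 3.01 (adjusted p = 0.00104), and without delta A 1 that of PPO1 was 2.39. Calls were lost without delta B 1 or 2 for PPO1 (up to 0.0814), without delta B 2 or 3 for eater (up to 0.0832) and without any 1 delta B library for Nplp2 (up to 0.105). Summed levels were 725 to 1090.5 CPM in delta A and 641 to 694 CPM in delta B. The calls of Hml and NimC1 were lost with delta B 4 added (adjusted p = 0.382 and 0.164). Across labels Hml was at 7.94 to 11.1 CPM in delta A 1 to 3, 13.4 CPM in delta A 4 and 1.69 to 2.66 CPM in delta B 1 to 3, against 14.1 CPM in delta B 4 and 15.5 to 35.6 CPM in wild type. It was at 2.88 to 6.61 CPM in delta C and 0.802 to 1.11 CPM in delta F. The adjusted p of NimC1 was 0.0865 with the length trend removed. What part RNA of these other tissues has in the differences between the labels was not tested.

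Cuticle protein genes were higher in delta A for 18 of 51 and lower for 5 (median 1.32). The fit without delta A 4 gave 20 higher and 11 lower of 45 (median 0.57). The larval cuticle genes Lcp4, Lcp3 and Lcp2, neighbours on chromosome 2R, were among the higher. Lcp4 had 70.8, 62.5, 119 and 66.8 CPM in delta A, against 0.223, 0.744 and 0.190 CPM in delta B. Lcp3 had 25.97, 19.3, 44.6 and 40.9 CPM in delta A, against 0.0957, 0.276 and 0.0950 CPM in delta B, and Lcp2 had 48.04, 53.8, 113 and 45.00 CPM in delta A, against 0.542, 0.467 and 0.285 CPM in delta B. Their log2 fold changes were 7.59, 7.58 and 7.21 (adjusted p = 0.000554, 0.000524 and 0.000524). Delta A 3 was the highest library for each, and each was high in all 4. Without delta B 2 the log2 fold changes of Lcp4 and Lcp3 were 8.56 and 8.35. Cpr67Fa1 had 7.51, 7.41, 10.1 and 6.91 CPM in delta A, against 0.351, 0.212 and 0.158 CPM in delta B (log2 fold change 5.04, SE 0.36, adjusted p = 0.000524). Over delta C, Lcp4 ran from 2.29 to 82.4 CPM on the scale of all libraries, and over delta F from 0.507 to 6.32 CPM.

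**Figure D5:**
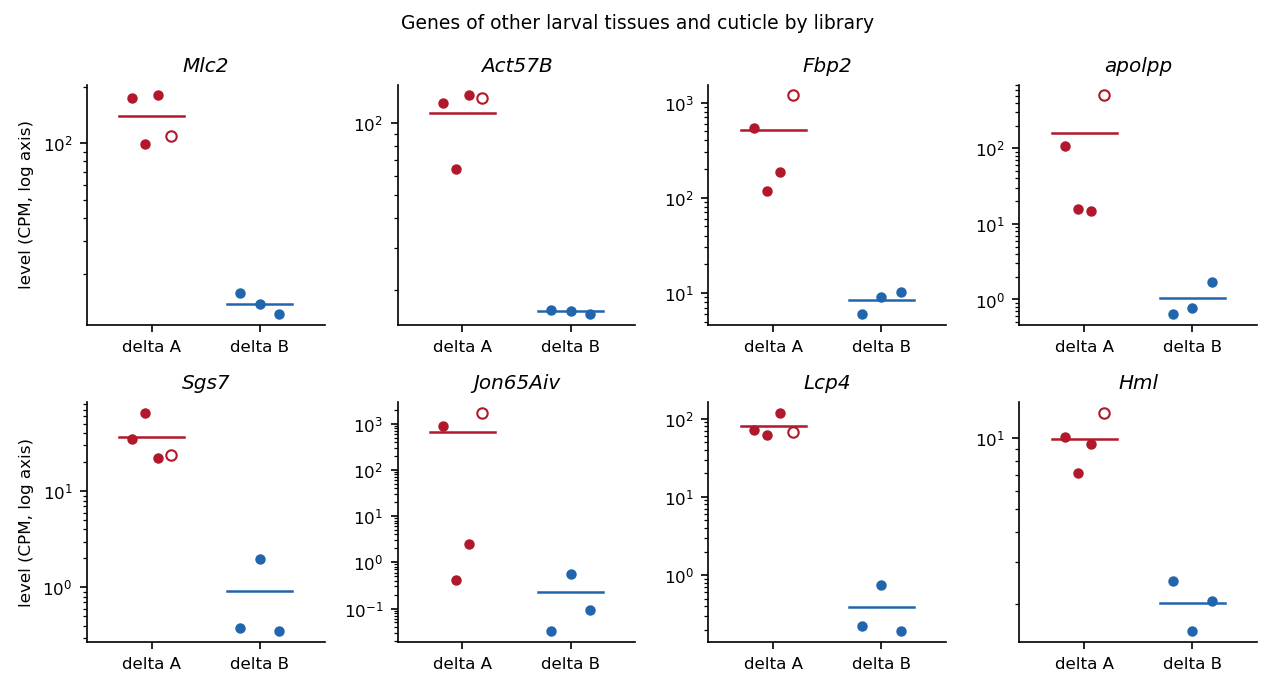
Levels (CPM, log axis) of muscle genes Mlc2 and Act57B, fat body genes Fbp2 and apolpp, the glue gene Sgs7, the midgut protease gene Jon65Aiv, the cuticle gene Lcp4 and the hemocyte gene Hml, in delta A (red, open point delta A 4) and delta B (blue), with lines at the label means. Delta A lies above delta B in all panels but that of Jon65Aiv, where delta A 1 and 4 are high and delta A 2 and 3 lie at or near the level of delta B.

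A small set of genes was read in one label and hardly or not at all in the other: 9 of the 1771 genes called had no count in any delta A library and 17 had none in any delta B library. CG18853 had 110.1, 105, 105 and 85.97 CPM in delta A, against 0, 0 and 0 CPM in delta B, that is 11026 counts in all against 0, which makes it at least 3778-fold higher in delta A with a floor of 3 counts over the label. It overlaps CG30382 on the opposite strand. CG4563, with 12.4, 4.67, 4.83 and 75.9 CPM in delta A, against 0, 0 and 0 CPM in delta B, was at least 728-fold higher, or at least 274-fold without delta A 4. Neto, an auxiliary protein gene of glutamate receptors, had 1.31, 1.99, 1.75 and 4.49 CPM in delta A, against 0, 0 and 0 CPM in delta B and was at least 80.2-fold higher. CG7900 was close to 0 in delta B 1 to 3, with 21.8, 22.9, 24.2 and 21.8 CPM in delta A, against 0.0319, 0.0212 and 0.127 CPM in delta B (adjusted p = 7.68e-05). CG4210 was too, with 20.5, 20.96, 18.5 and 15.5 CPM in delta A, against 0.0319, 0.0850 and 0.158 CPM in delta B (adjusted p = 0.000107). Nplp4, a neuropeptide-like precursor gene, had 73.2, 3.40, 21.02 and 46.5 CPM in delta A, against 0.319, 0.0850 and 0.0633 CPM in delta B (log2 fold change 7.88, SE 1.32, adjusted p = 0.00906). Its call was lost without delta B 2 (0.0541) or delta B 3 (0.0512), and that of CG4563 without delta A 1 or any delta B library (adjusted p up to 0.0854). The log2 fold change of Nplp4 was 7.27 without delta A 1 and 8.80 without delta B 1. Each of the 6 was higher in all 4 delta A libraries, which the rule that named them (no overlap) requires. Without delta B 2, the deepest delta B library, the bounds were 2161-fold for CG18853, 416-fold for CG4563 and 45.9-fold for Neto. The calls of CG18853, CG7900, CG4210 and CG4563 were lost with delta B 4 added (adjusted p = 0.611, 0.243, 0.368 and 0.182). On the scale of all libraries delta B 4 held 10.6 CPM of CG7900, 15.1 CPM of CG4210 and 4.36 CPM of CG4563.

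In the other direction, CG7213 had no count in delta A and 10.8, 8.35 and 10.6 CPM in delta B, and was at least 347-fold lower in delta A. The gustatory receptor gene Gr64a had no count in delta A and 1.75, 1.49 and 2.53 CPM in delta B, at least 66.5-fold lower. Oseg5, a gene of ciliary transport, held 2 counts in delta A and 720 in delta B, a ratio of delta B over delta A of 350 (95% interval 96.6 to 2898). For lncRNA:CR46260 that ratio was 329 (95% interval 90.8 to 2725), or 539 without delta A 4. The long noncoding RNA gene lncRNA:CR40469, on the X chromosome, had 0.160, 0.359, 0.623 and 0.464 CPM in delta A, against 356, 412 and 537 CPM in delta B (log2 fold change -10.10, SE 0.41, adjusted p = 3.86e-05). The call of Gr64a was lost with delta B 4 added (adjusted p = 0.0706). These intervals and floors cover counting error only. Several of these genes differ among libraries of 1 label as well. On the scale of all libraries CG18853 was at 118 CPM in delta B 4, at 127 to 147 CPM in delta C, at 114 to 120.5 CPM in delta F and at 0 to 117 CPM in wild type. The level of lncRNA:CR40469 was 0.0449 CPM in delta B 4 and 0.0427 to 188 CPM in wild type.

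By position in the genome, the share of genes called was 18.3% on X, 19.2% on 2L, 19.0% on 2R, 19.4% on 3L, 16.8% on 3R and 24.1% of the 83 genes tested on chromosome 4. On chromosome 4, 16 genes were higher and 4 were lower in delta A, with a median log2 fold change of 0.28. Within 1 Mb of ft 19.9% of 146 genes were called, against 19.2% of the other genes of 2L. By length of the longest transcript, the median log2 fold change over 4 groups of like size was 0.19 in the shortest genes (up to 1224 bases), 0.0067 and -0.069 in the middle groups and -0.0048 in the longest (over 3292 bases). When delta A 4 was left out these medians were 0.26, 0.045, -0.080 and -0.14. The trend with length of each library, relative to the mean of the libraries, is given above. Its part in the calls was not tested beyond removing it, which left 2520 genes called. Of these, 1523 were shared with the 1771 (60.4% of the 2520 and 86.0% of the 1771).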

How the data were processed

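RNA of wing discs was sequenced with paired-end reads of 150 bases, from 10 ng of total RNA and 12 to 15 PCR cycles, per the labels' protocols. The authors deposited estimated counts per gene (17208 genes, 42 libraries), not normalized; the submitters' processing notes name FastQC 0.10, Trimmomatic 0.33, Salmon 1.80, edgeR and dm6, and whether counting used strand is not given in the sources used here. Genes that overlap or have near-identical copies are therefore uncertain. Counts were rounded to whole numbers. Columns were matched to samples by genotype, sequencer and replicate number, and 17083 gene identifiers to the Ensembl annotation of genome release 6, from which positions and transcript lengths come.

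Delta A 1 to 4 and delta B 1 to 3 were tested with edgeR 4.0.16 in R 4.3.3 (TMM scaling, filterByExpr, quasi-likelihood test, 5 residual degrees of freedom, biological coefficient of variation 32.5%). Benjamini-Hochberg adjustment covered all 9482 genes (threshold 0.05), and the fit was tested on simulated data. Levels (CPM) use TMM factors in the scaling of the counts. Trends with transcript length, relative to the mean of the libraries fitted, were removed by loess (span 0.3) as an offset. For a label with no count, folds are bounds from a floor of 3 counts over the label; ratios with 1 to 3 counts have exact binomial 95% intervals. PCR copies cannot be told from separate molecules.

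The libraries, the 43 gene lists and the alternatives were chosen with earlier results of these data known, so the lists carry counts and medians and no test. Named genes are ft, 13 genes of the Fat and Hippo pathways, the 12 largest rises and 12 largest falls with a mean of 50 counts or more and no overlap, and up to 4 genes of smallest p from each list with at least 2 genes called. This names 149 genes, of which 96 are printed in full, with 11 more chosen after their values were seen. Which of the 149 were printed followed no stated rule, and some of the largest rises and falls were left out. Alternatives were DESeq2 1.42.0 (size factors, Wald test), no filter, other sets of libraries, delta B 4 included, rRNA genes left out, the rRNA share as a covariate, the length trend removed, the replicate number as a block, and each library left out. Removing the length trend without delta A 4 was added after seeing the data.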

Additional observations from a re-analysis of the deposited data

Results flagged for a closer look

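In delta A, with 4 libraries, the highest or lowest library was tested for its gap to the nearest other library by Dixon's criterion at the 95% level, in 107 named genes and 3 further measures. Of these 110 sets of values 26 passed. Among the 96 genes named by the rule 21 passed, and in 16 of the 21 the library was delta A 4, high in 13 and low in 3. Chance passes about 5 in 100 sets of independent, normal values. These genes were read in the same 4 libraries and were named partly by their values there. The 21 therefore cannot be set against that rate. The other 5 sets belong to the 11 genes chosen after their values were seen, some of them because delta A 4 stood apart, so they are a description only: Hsc70-4, Spx, mei-38, kay and dve, each high in delta A 4.

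Among genes of the Fat and Hippo pathways, delta A 4 was high for ft (483 CPM), d (271 CPM), dco (33.7 CPM), ex (296 CPM) and kibra (57.6 CPM). Among patterning and polarity genes it was high for Dr (38.9 CPM), tup (11.9 CPM), eyg (39.3 CPM), dve (65.4 CPM) and dgo (36.8 CPM) and low for dsh (3.30 CPM). It was also high for kay (135 CPM), upd2 (0.516 CPM), fzy (95.7 CPM), CG4563 (75.9 CPM) and Nplp2 (55.3 CPM). The same held for Spx (101 CPM), mei-38 (59.3 CPM) and Hsc70-4 (4477 CPM). Delta A 4 was low for Debcl (43.8 CPM) and Gapdh2 (1477 CPM).

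In the remaining 5 sets of genes named by the rule the library was delta A 3, high for the cuticle genes Lcp4 (119 CPM) and Lcp2 (113 CPM); delta A 2, high for mt:ND4L (0.620 CPM) and low for Act57B (63.8 CPM); and delta A 1, high for PPO1 (70.9 CPM).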

How the results depend on the processing

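The count of 1771 genes stayed within 1.5 times with DESeq2 size factors, without a filter on low counts, with rRNA genes left out, with the length trend removed and in a fit of all NovaSeq 6000 libraries. It did so for the higher and lower genes too, apart from 1379 lower with the length trend removed. In the fit of all NovaSeq 6000 libraries 1032 of its 1751 calls were shared with the 1771 (58.9% of the 1751 and 58.3% of the 1771). The count was 3233 (1711 higher, 1522 lower) in a fit with delta C and delta F, 2796 (1453, 1343) by DESeq2's Wald test, 513 (325, 188) with delta B 4 and 78 (40, 38) with the rRNA share as a covariate. Without delta A 4 and with the length trend removed it was 4181 (2178, 2003). Leaving out 1 library gave 603 to 3937 genes, 293 to 1806 higher and 310 to 2131 lower. Replicate numbers did not pair the libraries: same-numbered libraries of the labels had correlations of -0.058, 0.036 and -0.019, none over 0.1. With the replicate block on replicates 1 to 3 the count was 3433 (1530 higher, 1903 lower), against 3937 without it.

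Directions that changed, none with a call in both settings, were these. With the length trend removed ft had a log2 fold change of -0.074 and fj 0.096; without delta A 4 as well, ft had -0.017, fj 0.096 and CycE 0.020. In the fit of all NovaSeq 6000 libraries and with delta B 4 the values were -0.74 and -0.75 for ds, -0.35 and -0.36 for zfh2, -1.60 and -1.62 for Slik, -1.95 and -1.98 for dsh, and 0.10 and 0.099 for Myc. Myc was at 0.0034 with rRNA genes left out. Leaving out 1 library in turn gave -0.12 to 0.090 for Myc, above 0 without delta A 1, delta A 3 or delta B 3, and -0.38 to 0.019 for kibra, above 0 without delta B 3. The cause of these changes was not tested. Of the 90 named genes called, 42 lost their call with delta B 4, 72 with the covariate and 29 in the fit of all NovaSeq 6000 libraries. The calls lost were those of wap, upd2 and dve with DESeq2 size factors, wap, tum, upd2 and NimC1 without a filter, upd2 and dve with rRNA genes left out, ImpE2 in the fit with delta C and delta F, and NimC1 with the replicate block. With the length trend removed 8 were lost, and 6 without delta A 4 as well. Medians of lists moved by less than their spread in 655 cases and by more in 119. Depth limits the genes of few counts most: for a label with no count, only a bound from 3 counts can be given.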
